A study of Arabidopsis thaliana with 16 samples.

Results

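The transcriptome of seeds that lack DOG1 function was compared with that of WT seeds without salt. DOG1 (DELAY OF GERMINATION 1) is a main regulator of seed dormancy in Arabidopsis. The 8 libraries compared, of 16 in the series, were 4 of WT (Col-0) mock and 4 of dog1-3 mock, chosen by genotype and treatment from the sample labels. All seeds were imbibed for 72 h at 4°C, and mock seeds received no NaCl. The other 8 libraries, 4 of WT and 4 of dog1-3, came from seeds imbibed in the same way with 100 mM NaCl and are used here only for side by side values. The dog1-3 mutant is a single T-DNA insertion line (SALK_000867) in the Col-0 background, so other differences between this line and WT cannot be told apart from the loss of DOG1. Seeds were freshly harvested whole seeds. Fewer cells of a type and less RNA per cell cannot be told apart in such bulk samples.

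In maturing and imbibed seeds, the hormone ABA keeps up dormancy and the transcripts of maturation, and GA promotes germination. ABA binds PYR/PYL receptors, which then inhibit clade A PP2C phosphatases, and the SnRK2 kinases that are released activate bZIP factors such as ABI5. These factors bind ACGTG cores in promoters (ABA response elements, ABRE). DOG1 protein binds and inhibits the PP2C phosphatases AHG1 and AHG3 and thereby raises the response to ABA. Germination needs growth of the embryo and weakening of the endosperm, both of which use cell wall proteins such as expansins.

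Each library was made by 3'RNA-seq, in which reads are collected next to the poly(A) tail. Total counts ranged from 2479170 to 3635844 in WT mock and from 1751431 to 2751027 in dog1-3 mock (two-sided exact permutation test, p = 0.0571), and levels are given as CPM, the counts scaled by the TMM-adjusted library size. The share of counts in the 20 most abundant genes of each library was 17.3% ± 1.04 for WT and 20.9% ± 1.15 for dog1-3 (SD, n = 4 each). This gave p = 0.0286 by a two-sided exact permutation test, which cannot go lower with 4 against 4. No 2 libraries of a group were copies. The genotypes separated on the first principal component (55.6% of the variance). All 7 markers of seed maturation were detected in every library, and their summed level was 26730 to 43771 CPM in WT and 60818 to 69459 CPM in dog1-3, with 6 of 7 called up. The 5 endosperm markers summed to 15236 to 21442 CPM in WT and 26180 to 34553 CPM in dog1-3, most of it EPR1, with 2 called up and 1 down, and their part in the results was not tested. Leaf markers summed to 379 to 461 CPM in WT and 492 to 587 CPM in dog1-3. Of the 6, 4 had too few counts to be tested, and RBCS1A (0.39, adjusted p = 2.16e-04) and RCA (0.49, adjusted p = 0.0470) were higher by log2 fold change in dog1-3 but under the 1.5-fold limit used below. Markers of root hairs, flowers and seed coat summed to at most 1.60 CPM in any library, and COBL9, AP3, VGD1 and TT8 had 0 counts.

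DOG1 (AT5G45830), the gene disrupted in dog1-3, had 80.5, 102, 75.8 and 63.1 CPM in the 4 WT libraries and 14.9, 19.0, 14.3 and 14.2 CPM in the 4 dog1-3 libraries. All mutant libraries lay below all WT libraries, at 19.4% of the WT mean, and the log2FC (log2 fold change of dog1-3 over WT) came to -2.33 (standard error 0.16, adjusted p = 3.21e-15). Reads are collected next to poly(A) tails, and the 3′ end of the gene may lie outside the disrupted part. The paper also describes noncoding transcripts, PUPPIES, that start upstream of DOG1 and in part end inside it. In salt-treated dog1-3 seeds it found only the PUPPIES isoform blocked by the insertion to be reduced. Which transcripts gave the remaining 25 to 51 counts per library was not tested. These counts do not show a functional transcript. The reference gene UBC21, a ubiquitin-conjugating enzyme, differed by 0.028 (adjusted p = 0.880). Of the loci directly beside DOG1, the kinase gene CIPK20 had at most 1 count in any mock library and AT5G45840 had 0, which allows up to 3 counts per library. Among the 10 tested genes on either side of DOG1, 1 was called up and 1 down, 10% of the 20. Over all genes tested, 18.4% were called (9.94% up and 8.44% down). AT5G45650, called down and described below, lies outside these 20, at 70.4 kb from DOG1.

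Genes were called differentially expressed (DEGs) where the adjusted p was under 0.05 and the change exceeded 1.5-fold. Of 12697 genes tested, 2334 were called (18.4%), with 1262 up (9.94%) and 1072 down (8.44%) in dog1-3. The 4 dog1-3 libraries all lay above the 4 WT libraries for 2043 genes (16.1% of those tested) and all below for 1988 (15.7%). The median log2FC was 0.91 among genes called up and -0.84 among those called down, and -0.0089 over all genes tested. A change of more than 2-fold was found for 500 genes up and 350 down, and of more than 4-fold for 31 up and 46 down. Abundant transcripts moved mostly in one direction: of 103 genes with a mean over 1000 CPM, 47 were called up and 3 down. With scaling by library size alone, which shifted the median of all genes to -0.18, 29.6% of the calls were up instead of 54.1%, so the balance of the directions rests on the TMM scaling.

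**Figure D1:**
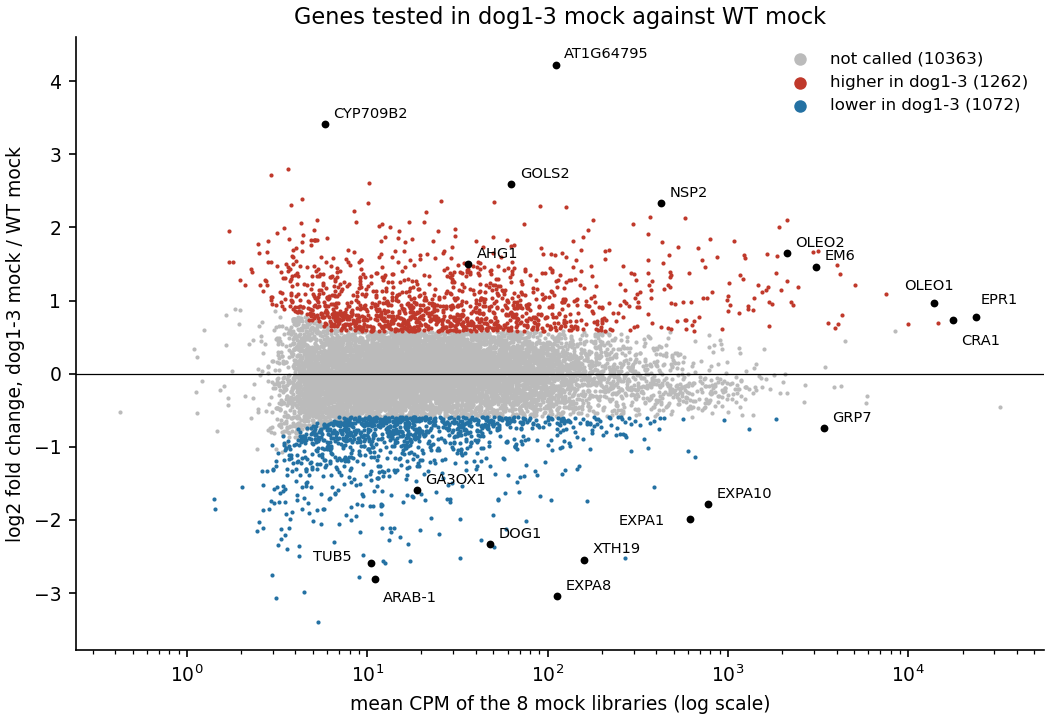
Mean CPM over the 8 mock libraries (log axis) against log2FC of dog1-3 mock over WT mock for the 12697 genes tested, with the 1262 genes called up in red, the 1072 called down in blue, the other genes in grey and named genes in black. Nearly all called genes above 1000 CPM lie on the upper side.

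The promoters of 5 genes are printed first, because sequences with ACGTG were more frequent before the genes that rose. The window is the 300 bases before the annotated gene start (RefSeq annotation of TAIR10.1, read 5′ to 3′ on the strand of the gene), and none of these 5 windows overlaps another annotated gene. They were chosen after the values were seen: an oleosin, a pair of LEA proteins and the phosphatase AHG1, which rose, and the expansin EXPA8, with the largest decrease named here. Capitals mark ACGTG and its reverse complement CACGT, so that the palindrome CACGTG (G-box) is a single capital run.
OLEO1: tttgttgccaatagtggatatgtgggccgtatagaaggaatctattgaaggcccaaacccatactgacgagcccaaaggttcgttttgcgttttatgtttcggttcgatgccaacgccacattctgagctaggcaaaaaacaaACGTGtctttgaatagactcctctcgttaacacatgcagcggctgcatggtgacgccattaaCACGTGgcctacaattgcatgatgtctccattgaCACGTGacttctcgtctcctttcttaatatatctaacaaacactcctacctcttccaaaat
EM6: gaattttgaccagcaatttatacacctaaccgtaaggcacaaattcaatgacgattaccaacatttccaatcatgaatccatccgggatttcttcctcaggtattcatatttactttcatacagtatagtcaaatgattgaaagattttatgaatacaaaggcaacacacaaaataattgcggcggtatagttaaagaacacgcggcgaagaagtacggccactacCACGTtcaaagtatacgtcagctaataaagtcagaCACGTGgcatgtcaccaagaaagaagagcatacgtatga
LEA7: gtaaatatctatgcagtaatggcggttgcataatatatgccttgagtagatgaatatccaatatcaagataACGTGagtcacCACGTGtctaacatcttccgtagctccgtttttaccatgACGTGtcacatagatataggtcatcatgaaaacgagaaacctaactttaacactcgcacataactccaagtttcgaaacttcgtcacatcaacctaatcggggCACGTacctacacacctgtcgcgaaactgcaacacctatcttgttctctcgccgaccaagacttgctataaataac
AHG1: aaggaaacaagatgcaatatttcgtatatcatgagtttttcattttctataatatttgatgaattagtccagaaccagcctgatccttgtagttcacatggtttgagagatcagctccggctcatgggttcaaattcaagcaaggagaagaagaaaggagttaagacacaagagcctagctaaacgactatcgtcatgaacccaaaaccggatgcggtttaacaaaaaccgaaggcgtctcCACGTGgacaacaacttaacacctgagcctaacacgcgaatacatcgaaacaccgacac
EXPA8: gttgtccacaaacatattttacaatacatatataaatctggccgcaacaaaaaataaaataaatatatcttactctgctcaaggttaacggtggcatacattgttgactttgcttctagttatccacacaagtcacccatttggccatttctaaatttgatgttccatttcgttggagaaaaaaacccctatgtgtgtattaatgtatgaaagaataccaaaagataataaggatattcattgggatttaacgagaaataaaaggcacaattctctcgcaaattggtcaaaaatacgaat
These windows lie at chr4:12900130-12900429 on the plus strand for OLEO1 (AT4G25140), chr2:16780369-16780668 on the minus strand for EM6 (AT2G40170), chr1:19619424-19619723 on the plus strand for LEA7 (AT1G52690), chr5:21026505-21026804 on the plus strand for AHG1 (AT5G51760) and chr2:16950706-16951005 on the minus strand for EXPA8 (AT2G40610). OLEO1 holds 3 capital runs and also 3 copies of the RY element CATGCA, the site of B3 factors such as ABI3. LEA7 holds 4 runs, EM6 2, AHG1 1 and EXPA8 0.

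Over both strands, ACGTG occurred in 42.4% of the 1241 promoters of genes called up, 24.1% of the 1072 of genes called down and 26.2% of all 12628 promoters of tested genes with a window. The longer CACGTG, which contains ACGTG, occurred in 19.7%, 7.18% and 9.08%, and CATGCA in 14.4%, 9.33% and 8.31%. For AAACCCTA (telo box), found before many genes of translation, the shares were 2.90% for genes called up, 7.74% for genes called down and 5.02% for all. GGCCCA (site II element) occurred in 14.5%, 17.7% and 21.3%. Genes called up by a log2FC of 1 to 2 had ACGTG in 52.2% of 462 promoters, against 36.2% of 748 for those up to 1 and 45.2% of 31 for those over 2. The mean GC content was 32.2% for genes called up, 31.6% for genes called down and 31.8% over all. Within lists, ACGTG occurred in 86.8% of 38 LEA promoters and 19.1% of 340 ribosomal protein promoters, and over all 29 lists the shares ran from 7.69% of 13 ethylene promoters to 87.5% of 8 galactinol and raffinose promoters. CATGCA occurred in 84.6% of the 13 storage protein and of the 13 oleosin and caleosin promoters. A match is only a string of letters and does not show that a factor binds there.

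Most genes for proteins that fill and protect the dry seed were called up. Of 13 storage protein genes tested, 12 were called up and 0 down, with a median log2FC of 1.03. The number called up fell to 9 without WT mock replicate 4 (median 0.75) and to 7 with scaling by library size alone. It was 6 by a test against the fold limit itself. Of 38 late embryogenesis abundant (LEA) and dehydrin genes, which protect cells during drying, 32 were called up and 0 down (median 0.98). Oleosins, caleosins and steroleosins, the coat proteins of oil bodies, had 11 of 13 called up and 1 down (median 0.96). The background over all genes, to be set beside each list count here and below, was 9.94% up and 8.44% down, with a median of -0.0089.

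The cruciferin CRA1 (AT5G44120), a 12S storage globulin and among the most abundant transcripts, had 15716, 16117, 12225 and 8977 CPM in the WT libraries and 21167, 22747, 20511 and 23774 CPM in dog1-3. All mutant libraries were higher, and the log2FC was 0.73 (standard error 0.13, adjusted p = 2.56e-05), although with scaling by library size alone it was 0.57, adjusted p = 2.40e-04, under the fold limit. PAP85 (AT3G22640), a vicilin-like globulin, rose from 3029.8 ± 449.8 to 7039 ± 484 CPM (SD, n = 4 each), by 1.22 (standard error 0.10, adjusted p = 1.27e-12). The vicilin-like genes VCL21 and VCL28 rose by 1.64 and 1.27. SESA3, a 2S albumin, had a log2FC of 0.68 (standard error 0.14, adjusted p = 1.46e-04) and CRU3 of 0.69 (standard error 0.13, adjusted p = 6.40e-05). Both fell below the fold limit without WT mock replicate 4, at 0.52, adjusted p = 8.05e-04 for SESA3 and 0.56, adjusted p = 3.86e-04 for CRU3, and with library size alone. WT mock replicate 4 had the lowest level of storage protein transcripts among the 8 mock libraries. The cruciferin CRU2 was the only member not called, at -0.18.

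Among LEA genes, EM6, a group 1 LEA protein of the late embryo, had 1699.5, 1837, 1628 and 1414 CPM in WT and 4601, 5519.7, 4267 and 3744 CPM in dog1-3. Its homologue EM1 had 459, 394, 371 and 373 CPM in WT and 930.3, 1213, 1080.4 and 1149 CPM in dog1-3. In both genes every mutant library exceeded 2 times the highest WT library, and both had a log2FC of 1.46 (standard errors 0.12 for EM6 and 0.11 for EM1). LEA14 (AT1G01470) rose by 1.97 (standard error 0.10, adjusted p = 4.23e-19), LEA7 by 1.64 (standard error 0.10, adjusted p = 8.95e-17) and the seed maturation protein gene AT2G21820 by 1.55 (standard error 0.092, adjusted p = 1.10e-16). The dehydrins RAB18, LTI30 and XERO1 rose by 1.09, 1.01 and 0.98. Of the 6 not called, ERD14 had the lowest value, at -0.54.

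The oleosin OLEO1 had 11649.9, 9418, 8507 and 7718 CPM in WT and 15871, 18529, 17919 and 20804 CPM in dog1-3, without overlap, and rose by 0.97 (standard error 0.12, adjusted p = 1.06e-08). OLEO2 rose from 1031 ± 134 to 3233 ± 394 CPM (SD, n = 4 each), and the log2FC was 1.65 (standard error 0.11, adjusted p = 3.86e-15). The oleosin genes AT3G18570 and AT2G25890 rose by 1.62 and 1.35. Only the steroleosin gene HSD2 fell, by -0.66. OLEO1, OLEO2 and AT2G25890 overlap genes on the opposite strand, and the strand setting of the counting is not given in the sources used here. The same holds for UBC21, LEA7, RAB18, EXPA2, EXLA1, MAN5, ABI1, SNRK2.3, EEL, ABF4, HSFA9, GASA6, ERS1, PIF1, PIF6, FLC, MCM7, ORC4, HSP101, LHCB4.2, PSBR, AT1G17080 and CYP709B2, and for others where stated, so reads of these genes and of their antisense neighbours may not be separated.

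Shares of all counts, given next, are not TMM-scaled, and their changes differ in size from those in CPM. The summed CPM of storage proteins was 30534 to 55581 in WT and 70754 to 79430.5 in dog1-3. The LEA list took 3.14, 3.05, 3.04 and 2.51% of the counts in the WT libraries and 5.09, 5.72, 5.23 and 5.48% in dog1-3. Storage proteins took 5.74, 6.07, 4.67 and 3.47% in WT and 7.11, 7.64, 7.06 and 7.66% in dog1-3. The groups did not overlap in either list. The expansin list, described below, took 0.307, 0.289, 0.293 and 0.282% in WT and 0.0865, 0.0725, 0.0747 and 0.0669% in dog1-3. Enzymes of oil breakdown took 2.01% ± 0.108 in the WT libraries and 1.59% ± 0.0566 in those of dog1-3 (SD, n = 4 each) and their summed CPM, 16340 to 19275 in WT and 15481 to 17314 in dog1-3, overlapped between the genotypes.

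**Figure D2:**
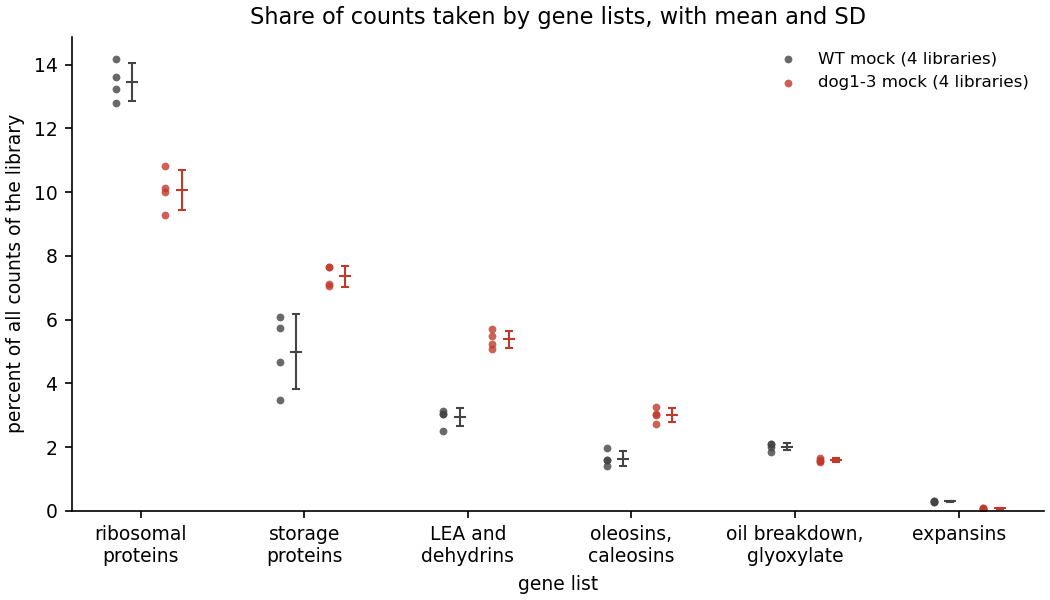
Percent of all counts in each mock library that 6 gene lists took, with WT in grey and dog1-3 in red, each point a library and the bars beside them mean and SD (n = 4). Ribosomal proteins, oil breakdown genes and expansins had lower shares in every dog1-3 library, and storage proteins, LEA proteins and oleosins higher shares. Shares are not TMM-scaled, and the summed CPM of oil breakdown genes overlapped between the genotypes.

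Of 10 expansins tested, which loosen cell walls during growth, 7 were called down and 1 up (median -1.27), and the list of endosperm germination genes, which shares EXPA1, EXPA2 and EXPA8 with it, had 5 of 8 called down and 1 up (median -1.15). EXPA8 had 234, 213, 183 and 176 CPM in the WT libraries and 36.7, 19.8, 19.5 and 22.6 CPM in dog1-3. Its mutant level was 12.2% of WT, and the log2FC was -3.04 (standard error 0.14, adjusted p = 5.25e-20). EXPA1, expressed in the germinating endosperm, had 1069.6, 1047, 889 and 925 CPM in WT and 281, 236, 242 and 235 CPM in dog1-3, a log2FC of -1.98 (standard error 0.10, adjusted p = 3.07e-19). EXPA10 fell from 1199 ± 101 to 349 ± 35.7 CPM (SD, n = 4 each), by -1.78 (standard error 0.094, adjusted p = 4.83e-18). EXPA9, EXPB1 and EXPA15 were called down with log2FC of -2.12, -1.62 and -0.75. EXPA2, an endosperm expansin, had 7.82, 19.2, 16.2 and 4.11 CPM in WT and 14.4, 5.597, 2.86 and 2.62 CPM in dog1-3. These overlap, and its log2FC of -0.91 (standard error 0.37, adjusted p = 0.0483) passed the threshold narrowly. The call was lost when WT mock replicate 2 (-0.58, adjusted p = 0.237), WT mock replicate 3 (-0.70, adjusted p = 0.177) or dog1-3 mock replicates 2, 3 or 4 were left out one at a time (-0.84, adjusted p = 0.134, then -0.71, adjusted p = 0.160, then -0.68, adjusted p = 0.178). The expansin-like gene EXLA1 was the member that rose, by 2.04.

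Xyloglucan endotransglucosylases, which cut and rejoin wall polymers, had 3 of 8 called up and 1 down (2 down without WT mock replicate 4 or without dog1-3 mock replicate 2). XTH15, up by 0.586, kept its call in only 8 of 20 alternatives. The list had 2 called up with DESeq2, and also without WT mock replicates 3 or 4 or dog1-3 mock replicate 1. XTH19 (AT4G30290) had 281, 344, 254 and 211 CPM in WT and 76.7, 36.6, 44.1 and 32.0 CPM in dog1-3 and fell by -2.54. XTH25, by contrast, rose from 191 ± 47.3 to 665 ± 53.2 CPM (SD, n = 4 each), by 1.80 (standard error 0.13, adjusted p = 7.89e-15), and XTH11 by 1.23. The bZIP factor gene bZIP44, known to act on endosperm mannanase, fell by -1.39, and the mannanase genes MAN7 and MAN5 had log2FC of -0.14 and 0.10 and were not called. EPR1, an extensin-like wall protein of the endosperm, rose from 17580.2 ± 2737 to 30105 ± 3742 CPM (SD, n = 4 each), by 0.78 (standard error 0.12, adjusted p = 1.11e-06), and was the most abundant DEG. Pectin methylesterases and their inhibitors had 3 of 12 called up and 3 down, but 1 up without WT mock replicate 2, and PME3 fell by -1.61. Of 12 tubulins only TUB5 was called, from 17.98 ± 3.20 to 3.02 ± 1.35 CPM (SD, n = 4 each), with a log2FC of -2.59 (standard error 0.31, adjusted p = 1.01e-08), and leaving out dog1-3 mock replicate 4 added 1 tubulin called up. Of 5 peroxidases, AT2G22420 was called, down by -1.43.

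**Figure D3:**
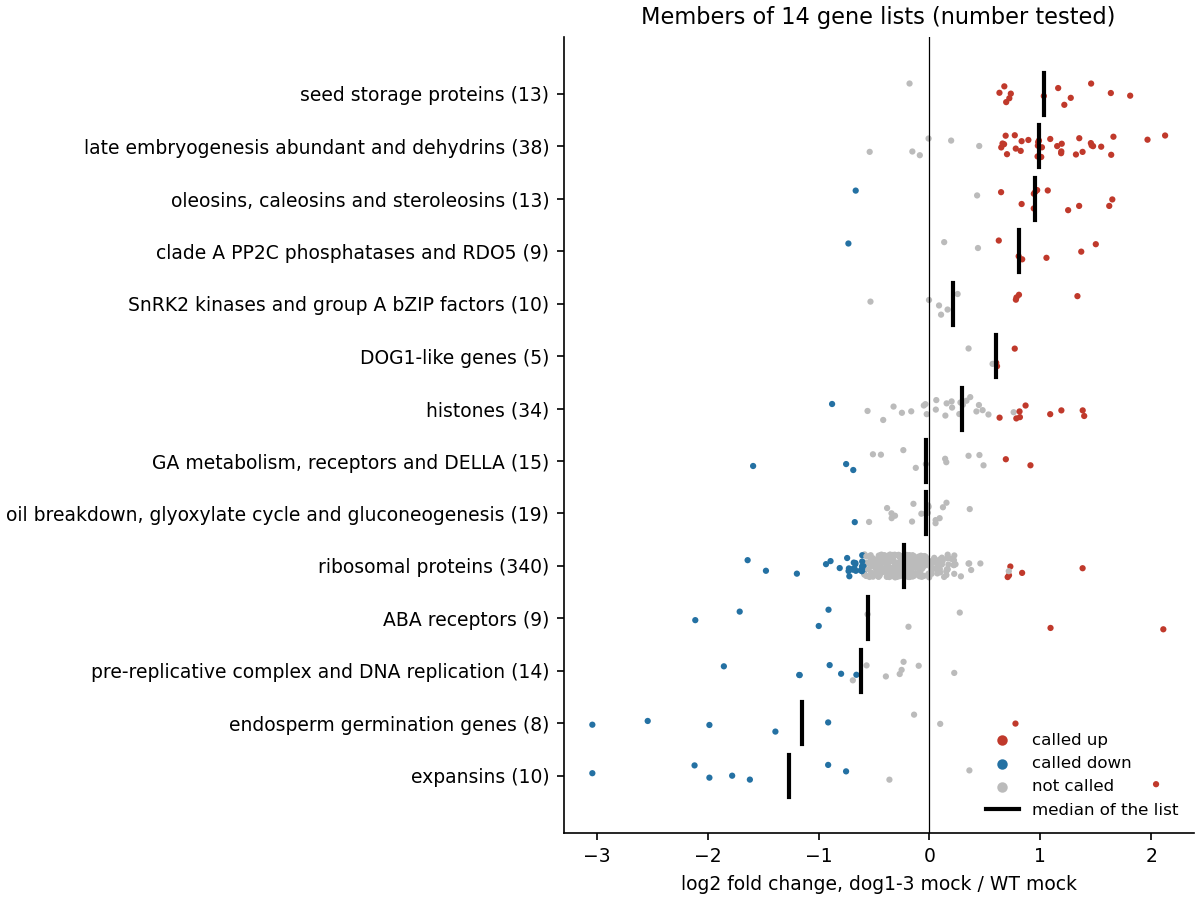
Log2FC of dog1-3 mock over WT mock for the tested members of 14 gene lists, each point a gene (red called up, blue called down, grey not called) and each black bar the median of the list. Medians run from 1.03 for storage proteins to -1.27 for expansins, while DELLA and GA genes and oil breakdown genes centre near 0.

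The core of ABA signalling changed unevenly. Of 9 genes tested in the list of clade A PP2C phosphatases and RDO5, 6 were called up and 1 down (median 0.80). AHG1, which DOG1 protein binds, had 22.4, 21.4, 17.2 and 15.7 CPM in WT and 53.8, 54.1, 52.7 and 53.5 CPM in dog1-3, with no overlap, and rose by 1.5004 (standard error 0.13, adjusted p = 1.37e-12). AHG3, the other binding partner, had 91.3, 87.0, 94.3 and 94.6 CPM in WT and 130.5, 143, 165 and 129.6 CPM in dog1-3. Its log2FC was 0.63 (standard error 0.084, adjusted p = 1.31e-07), just over the fold limit, and fell under it without dog1-3 mock replicate 3 (0.55, adjusted p = 3.93e-06). With scaling by library size alone the log2FC of AHG3 was also under the limit, at 0.45, adjusted p = 5.74e-05. AHG3 was not called by a test against the fold limit itself (adjusted p = 0.846). HAI3 and HAI2, PP2C genes induced by ABA, rose by 1.37 (standard error 0.11, adjusted p = 9.38e-13) and 0.84 (standard error 0.088, adjusted p = 5.21e-10). ABI2 and HAB1 rose by 0.80 and 1.06. ABI1 fell, from 41.3 ± 4.50 to 25.1 ± 2.79 CPM (SD, n = 4 each), by -0.73 (standard error 0.12, adjusted p = 5.54e-06). RDO5, a PP2C-like dormancy protein, stayed near 1366 CPM (0.13 (standard error 0.083, adjusted p = 0.226)).

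The ABA receptors had 4 of 9 called down and 2 up (median -0.56). PYL6 had 22.7, 19.2, 21.7 and 23.5 CPM in WT and 6.39, 4.85, 4.01 and 4.72 CPM in dog1-3, and PYL4 had 49.9, 40.7, 39.4 and 39.0 CPM in WT and 18.1, 8.21, 11.5 and 14.7 CPM in dog1-3. Both fell without overlap, by -2.11 and -1.71, and PYR1 and PYL8 fell by -0.91 and -0.998. PYL7, at only 1.12, 2.44, 2.22 and 1.94 CPM in WT, rose to 8.52, 9.70, 8.02 and 8.40 CPM in dog1-3 (2.11 (standard error 0.28, adjusted p = 8.10e-08)), and PYL13 rose by 1.09. PYL7 overlaps AT4G01030 on the opposite strand.

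Of 10 SnRK2 kinase and group A bZIP genes, 4 were called up and 0 down (1 down without dog1-3 mock replicate 4). All 4 were bZIP factors, which bind ABRE: ABI5, EEL, ABF4 and bZIP67. ABI5 had 177, 182, 216 and 193 CPM in WT and 309, 353, 323 and 335 CPM in dog1-3 and rose by 0.78 (standard error 0.076, adjusted p = 6.92e-11). EEL rose by 1.33 and ABF4 by 0.79, both from under 10 CPM. The kinases SNRK2.2, SNRK2.3 and SNRK2.6 had log2FC of 0.087, -0.53 and 0.11, and 0 of the 3 were called.

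The maturation regulators, which include bZIP67 as well, had 3 of 8 called up and 1 down. MFT, a phosphatidylethanolamine-binding protein that acts between ABA and GA in germination, had 108, 125, 107 and 109 CPM in WT and 283, 276, 216 and 256 CPM in dog1-3 and rose by 1.20 (standard error 0.089, adjusted p = 5.00e-14). It overlaps AT1G18090 on the opposite strand. HSFA9, a heat shock factor of late maturation, rose by 1.12 (standard error 0.21, adjusted p = 2.98e-05). bZIP67 had a log2FC of 0.81 (standard error 0.29, adjusted p = 0.0270) with overlapping libraries, and its call was lost without WT mock replicate 3 (0.75, adjusted p = 0.0641), dog1-3 mock replicate 1 (0.79, adjusted p = 0.0528) or dog1-3 mock replicate 2 (0.51, adjusted p = 0.272). ABI3, the B3 master regulator of maturation, differed by 0.35 (standard error 0.076, adjusted p = 2.98e-04), below the fold limit although its libraries did not overlap. ABI4, an AP2-type factor of ABA signalling, fell from 52.9 ± 2.52 to 32.3 ± 4.30 CPM (SD, n = 4 each), by -0.71 (standard error 0.11, adjusted p = 1.42e-06).

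Genes of ABA metabolism moved in both directions, with 2 of 7 called up and 1 down. NCED9, an enzyme of the rate-limiting cleavage step of ABA synthesis, had 14.2, 8.95, 9.35 and 9.92 CPM in WT and 27.2, 23.9, 25.8 and 23.1 CPM in dog1-3 and rose by 1.26 (standard error 0.18, adjusted p = 2.82e-07). ABA1, the zeaxanthin epoxidase, rose by 0.94 (standard error 0.13, adjusted p = 1.22e-07). CYP707A2, an ABA 8′-hydroxylase that breaks ABA down during imbibition, had 24.2, 19.2, 25.8 and 25.6 CPM in WT and 7.46, 16.4, 12.6 and 13.6 CPM in dog1-3 and fell by -0.89 (standard error 0.19, adjusted p = 2.21e-04). NCED5 and NCED6 had log2FC of 0.30 and 0.047, neither of them called, and CYP707A1 and CYP707A3 had too few counts to be tested.

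In GA metabolism and signalling, 3 of 15 genes were called down (20%) and 2 up (13.3%), against 8.44% and 9.94% of all genes. GA3OX1, which makes bioactive GA, had 33.5, 21.7, 29.3 and 29.5 CPM in WT and 7.46, 10.4, 10.3 and 8.92 CPM in dog1-3, a log2FC of -1.59 (standard error 0.18, adjusted p = 1.66e-09). GA20OX1 and GA20OX2, of the step before, fell by -0.75 (standard error 0.12, adjusted p = 2.19e-06) and -0.69 (standard error 0.11, adjusted p = 5.80e-06), and the more abundant GA20OX3 had -0.12 (standard error 0.10, adjusted p = 0.348). GA2OX2, which inactivates GA, rose from 16.3 ± 2.21 to 30.8 ± 5.54 CPM (SD, n = 4 each), by 0.91 (standard error 0.16, adjusted p = 1.59e-05). The GA receptor gene GID1C rose by 0.69 (standard error 0.18, adjusted p = 0.00237), though its libraries overlapped. RGL2, the DELLA repressor of germination, differed by 0.45 (standard error 0.087, adjusted p = 6.92e-05), under the fold limit. GA3OX2 had too few counts to be tested. GASA6, a GA-regulated peptide gene outside this list, had 521, 533, 398 and 378 CPM in WT and 117, 58.2, 70.4 and 77.1 CPM in dog1-3 and fell by -2.52.

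**Figure D4:**
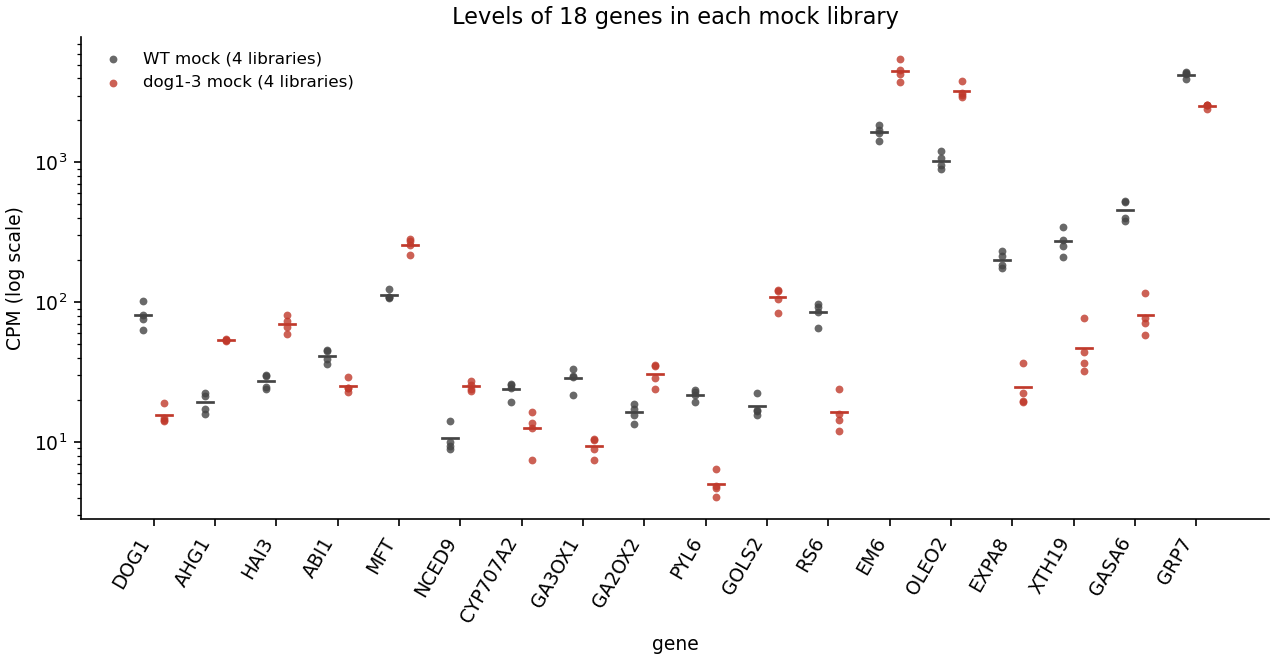
CPM (log axis) of 18 genes in each of the 4 WT mock (grey) and 4 dog1-3 mock (red) libraries, each point a library and each bar a group mean. The groups do not overlap for any of these genes.

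The ethylene list had 2 of 13 called up and 2 down (15.4% each), against 9.94% up and 8.44% down over all genes. ACS2, an ACC synthase, had 3.73, 6.78, 7.38 and 3.39 CPM in WT and 17.0, 25.7, 15.5 and 27.8 CPM in dog1-3 and rose by 2.01 (standard error 0.22, adjusted p = 1.99e-09), and the response factor gene ERF1 rose by 1.59. The receptor genes ETR2 and ERS1 fell by -1.17 and -0.88. In the light control of germination, 2 of 9 were called down (22.2%) and 1 up (11.1%). The transcription factor gene SPT (-0.86) and the histone demethylase gene JMJ22 (-0.77) fell, and the phytochrome interacting factor gene PIF6 rose by 0.72. PIF1 and its target SOM had log2FC of -0.070 and 0.35. Of 13 chromatin and other dormancy regulators, only the dormancy-associated gene DRM1 was called, from 66.4 ± 7.98 to 161 ± 13.9 CPM (SD, n = 4 each), with a log2FC of 1.28 (standard error 0.095, adjusted p = 4.92e-14). Of 5 DOG1-like genes 3 were called up. That number was 1 with scaling by library size alone, at a minimum count of 30 or with libraries thinned to the smallest. By a test against the fold limit itself it was 0. DOGL4 rose from 83.0 to 141 CPM, by 0.77 (standard error 0.088, adjusted p = 3.54e-09). DOGL3 and DOGL1 lay just over the fold limit at 0.61 and 0.60, and fell under it without dog1-3 mock replicate 1 for DOGL3 (0.56, adjusted p = 1.72e-06) and without WT mock replicates 1 or 4 or dog1-3 mock replicate 4 for DOGL1 (0.58, adjusted p = 5.65e-06, then 0.56, adjusted p = 4.19e-06, then 0.55, adjusted p = 8.18e-06). Of 7 flowering-time genes, 0 were called by edgeR, 0 by DESeq2 and 0 had an unadjusted p under 0.05, and the repressor gene FLC had 0.020 (standard error 0.092, adjusted p = 0.899).

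Of 8 genes of galactinol and raffinose metabolism, 3 were called up and 3 down. GOLS2, a galactinol synthase that commits sugar to raffinose, had 15.6, 22.5, 16.7 and 16.9 CPM in WT and 84.1, 123, 105 and 120.2 CPM in dog1-3 and rose by 2.59 (standard error 0.12, adjusted p = 2.63e-19). GOLS1 and the stachyose synthase gene RS4 rose by 1.23 and 1.25, and RS2 fell by -0.63. RS6 had 96.9, 91.6, 65.2 and 84.4 CPM in WT and 24.0, 11.9, 14.3 and 15.7 CPM in dog1-3 and fell by -2.37 (standard error 0.16, adjusted p = 2.08e-15), and SIP1 (SEED IMBIBITION 1) fell by -1.16. RS6 overlaps AT5G20260 and GOLS1 overlaps AT2G47170 on the opposite strand.

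Genes of oil breakdown, the glyoxylate cycle and gluconeogenesis had 0 of 19 called up and 1 down. Isocitrate lyase (ICL) and phosphoenolpyruvate carboxykinase (PCK1) had log2FC of -0.31 (standard error 0.094, adjusted p = 0.00829) and -0.38 (standard error 0.083, adjusted p = 3.23e-04), both under the fold limit, and malate synthase (MLS) had 0.092 (standard error 0.082, adjusted p = 0.415). The gene called, PMDH2 (-0.67 (standard error 0.27, adjusted p = 0.0450)), lost its call when 6 of the 8 libraries were left out in turn, all but dog1-3 mock replicates 1 and 3, with adjusted p from 0.0526 to 0.188.

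The pre-replicative complex and DNA replication list had 6 of 14 called down and 0 up (median -0.61). The number called down was 4 with DESeq2, 4 without dog1-3 mock replicate 3 or 4, and 7 without dog1-3 mock replicate 1. At a minimum count of 30 it was 2 of 6, and by a test against the fold limit itself 1. PCNA1, the sliding clamp of DNA polymerase, had 8.20, 10.3, 9.11 and 8.23 CPM in WT and 4.26, 0.746, 2.29 and 3.15 CPM in dog1-3, a log2FC of -1.85 (standard error 0.34, adjusted p = 2.94e-05). The helicase subunit gene MCM2 fell by -1.17 (standard error 0.27, adjusted p = 5.37e-04) and ORC4, of the origin recognition complex, by -0.66 (standard error 0.16, adjusted p = 0.00121). MCM4, MCM7 and CDT1A fell by -0.90, -0.80 and -1.17. These are low levels, at 2 to 38 PCNA1 counts per library.

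The 340 ribosomal protein genes had a median log2FC of -0.23, with 27 called down and 5 up, or 7.94% down against 8.44% of all genes. For 182 of the 340, 53.5%, all 4 dog1-3 libraries lay below all 4 WT libraries, against 15.7% of all genes tested. Together they took 12.8, 13.6, 13.2 and 14.2% of the counts in WT and 10.8, 9.29, 9.99 and 10.12% in dog1-3. The TMM-scaled sum of the list, untested members included, was 118251 to 124822 CPM in WT and 95413 to 108006 CPM in dog1-3. The list was taken by product name, so it can hold genes that match a ribosomal protein family by name only. Its lowest log2FC was -1.64. Among the members named by the rule given below, the largest decreases were those of RPSAb (-1.20 (standard error 0.12, adjusted p = 3.18e-10)) and AT5G08180 (-0.89 (standard error 0.075, adjusted p = 1.64e-12)). The genes called up include AT3G14595 (1.38) and AT1G17080 (0.71), whose products are annotated as L18ae family. FIB2, a fibrillarin that methylates ribosomal RNA, fell from 1162 to 749 CPM by -0.64 (standard error 0.082, adjusted p = 5.03e-08), under the fold limit without dog1-3 mock replicate 2 (-0.56, adjusted p = 1.39e-06).

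Of 37 heat shock and chaperone genes, 6 were called up (16.2%) and 5 down (13.5%), against 9.94% and 8.44% of all genes. HSP101, a disaggregase of the seed, and Hsp70b rose by 1.37 and 1.12. The mitochondrial chaperone genes mtHsc70-1 and HSP60-2 fell by -0.80 and -0.67, and the cytosolic HSC70-1 fell from 2228 ± 47.8 to 1445 ± 61.3 CPM (SD, n = 4 each), by -0.62. Histones had 9 of 34 called up and 1 down (0 down without dog1-3 mock replicate 2, 2 down without dog1-3 mock replicates 1 or 4). The linker histone gene HIS1-3, known to respond to ABA, rose by 1.19 (standard error 0.13, adjusted p = 5.29e-10), AT1G08170 by 1.40 and AT5G59690 by 1.38. Near-identical histone genes can share reads, so that their single values are uncertain.

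Light harvesting and photosystem genes had 8 of 32 called up and 2 down, with 0 to 4 down when single libraries were left out (0 without dog1-3 mock replicate 2, 4 without dog1-3 mock replicate 1, 1 without WT mock replicates 2 or 3 or dog1-3 mock replicate 3). LHCB4.2 rose by 1.24 and PSBR by 0.76. Among 14 antioxidant genes, PER1, a peroxiredoxin of the dry seed, had 935, 1177, 881 and 709 CPM in WT and 2669, 3001, 2571 and 3094 CPM in dog1-3, and its log2FC of 1.61 (standard error 0.12, adjusted p = 4.51e-14) was the only one called up (2 were called up without any 1 of WT mock replicates 1, 2 or 4 or dog1-3 mock replicates 1 or 2). APX1, a cytosolic ascorbate peroxidase, was called down at -0.86. Of 13 clock genes, 2 were called down (15.4%) and 1 up (7.69%), against 8.44% and 9.94% of all genes. CCA1 (-1.07) and ELF4 (-1.09) fell and GI (0.75) rose. GRP7, a clock- and cold-regulated RNA-binding protein and the most abundant gene called down, had 4444, 4326, 3954 and 4259 CPM in WT and 2587, 2572, 2578 and 2403 CPM in dog1-3 (-0.74 (standard error 0.079, adjusted p = 6.59e-10)). The medians of the ethylene, antioxidant, flowering-time, light harvesting and tubulin lists were positive but turned negative with scaling by library size alone. Those of the GA, oil breakdown and pectin lists changed sign when single libraries were left out. No direction of the median log2FC is therefore given for any of these lists.

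By size alone, among genes with at least 10 CPM in the higher group and no overlap, the largest increase was that of AT1G64795, an uncharacterized protein gene, with 5.96, 9.22, 14.03 and 14.3 CPM in WT and 226, 232, 175 and 215 CPM in dog1-3. Its log2FC was 4.23 (standard error 0.15, adjusted p = 1.04e-23), an 18.7-fold difference. It overlaps AT1G64790 on the opposite strand, whose log2FC was -0.26 (adjusted p = 0.0871). CYP709B2, a cytochrome P450, had 1.49, 0.813, 0.985 and 0.726 CPM in WT, 3 or 4 counts a library, and 10.12, 12.7, 10.3 and 9.45 CPM in dog1-3. The sugar transporter gene SWEET6 had 1.86, 4.61, 2.22 and 2.66 CPM in WT and 14.9, 18.3, 18.9 and 18.9 CPM in dog1-3 and rose by 2.603. NSP2, a nitrile specifier protein that directs glucosinolate breakdown, had 124, 177, 136 and 127 CPM in WT and 686, 761, 669.9 and 731 CPM in dog1-3 (2.34 (standard error 0.10, adjusted p = 1.39e-20)). COR413-PM1, a cold-regulated membrane protein, had 14.2, 14.4, 21.2 and 15.97 CPM in WT and 83.6, 85.1, 83.0 and 88.7 CPM in dog1-3. The RING protein gene AT2G27940, the vesicle protein gene VAMP712, the lectin gene AT3G21380 and AT3G57020 rose by 2.36, 2.33, 2.29 and 2.28.

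After EXPA8, the largest decreases included ARAB-1, a GDSL lipase, with 20.5, 20.6, 15.8 and 19.8 CPM in WT and 3.73, 1.49, 5.15 and 1.05 CPM in dog1-3 (-2.80 (standard error 0.30, adjusted p = 5.89e-10)). The noncoding RNA gene AT1G16635 fell by -2.78, the nudix hydrolase gene NUDT17 by -2.56, the F-box gene AT2G32560 by -2.56 and the cytochrome P450 gene CYP71B2 by -2.52. The subtilase gene AT5G45650 fell by -2.59 (standard error 0.31, adjusted p = 7.87e-09) and lies 70.4 kb from DOG1 on chromosome 5. Among abundant genes called down, AT3G08030 fell from 1644 to 977 CPM, by -0.75.

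The same genotype comparison in NaCl shares no library with that in mock. Both were estimated in the same model over all 16 libraries and use the same mutant line. Differences of that line other than the loss of DOG1 can therefore appear in both. There 1993 of 12697 genes were called (15.7%), 1036 up (8.16%) and 957 down (7.54%). Of the mock DEGs 1407 were also called in NaCl, 793 up in both and 614 down in both, which is 60.3% of the mock calls and 70.6% of the NaCl calls, and 0 were called with opposite signs. Of 1262 genes up in mock, 1221 had a positive log2FC in NaCl, and of 1072 genes down in mock, 1048 had a negative one. In NaCl the log2FC was -2.94 for DOG1, 1.17 for AHG1, 1.31 for EM6, -3.03 for EXPA8 and -1.95 for GA3OX1. The storage protein list had 10 of 13 and the LEA list 28 of 38 called up in NaCl. Of the 6 DNA replication genes called down in mock, 0 were called in NaCl by edgeR and 0 by DESeq2, 4 had an unadjusted p under 0.05 there, and 5 had a negative log2FC, while the median log2FC of the list was -0.60 there and -0.61 in mock. The interaction of salt and genotype, which tests whether the genotype difference itself differed, had 1 gene of 12697 at an adjusted p under 0.05, AT1G45160 (adjusted p = 0.0409), with log2FC of -1.91 in mock and -4.46 in NaCl. The unadjusted interaction p was under 0.05 for 287 of the 2334 mock DEGs. These genes were selected by the mock difference, which the interaction contains, so this number does not count genes with an interaction.

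**Figure D5:**
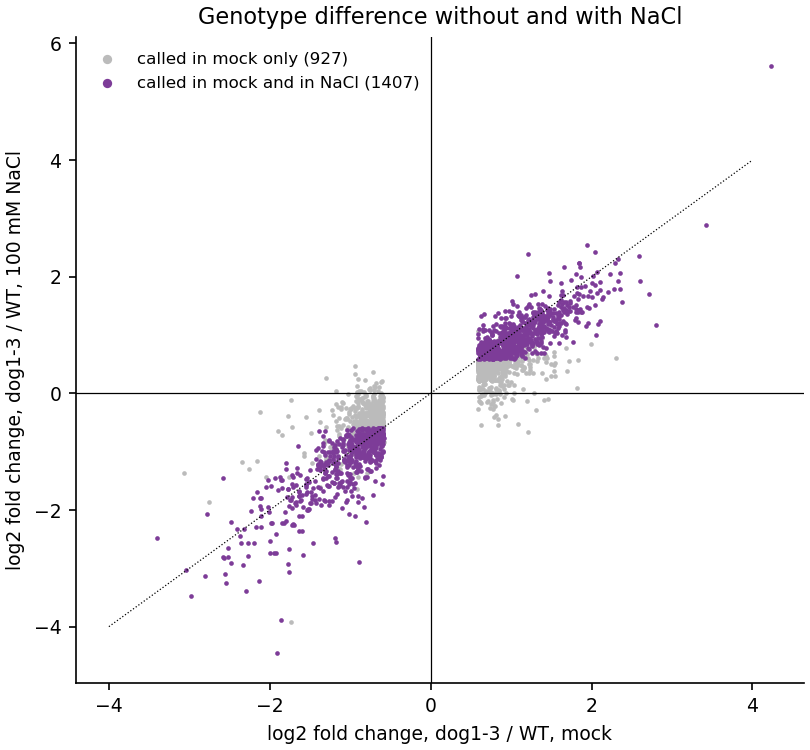
Log2FC of dog1-3 over WT in mock (horizontal) and in 100 mM NaCl (vertical) for the 2334 genes called in mock, with the 1407 also called in NaCl in purple, the other 927 in grey and the dotted line marking equal values. Most points lie in the same direction in both treatments.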

How the data were processed

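Seeds were compared as 4 WT mock and 4 dog1-3 mock libraries, grouped by their labels. Labels speak of biological replicas. The authors primed RNA with barcoded oligo(dT), pooled the mock reactions of both genotypes in a single library pool, and deposited unnormalized counts per locus. STAR 2.7.8a, DESeq2 and TAIR10 are listed in the submitters' processing notes without a role, and the counter, strand setting and handling of molecular identifiers are not given in the sources used here. Of 37336 loci, 37051 matched TAIR10.1 locus tags and 285 were organellar.

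Counts were fitted with edgeR 4.0.16 (R 4.3.3) over all 16 libraries with 4 group means, TMM scaling, filterByExpr (minimum count 10) and the quasi-likelihood F test with Benjamini-Hochberg adjustment. Standard errors are the log2FC over the square root of F. Single values were compared by exact permutation tests. Named genes were DOG1, UBC21, the neighbours of DOG1 and key genes of dormancy, the 10 largest non-overlapping changes in each direction with at least 10 CPM, the 5 most abundant DEGs in each direction and up to 3 members a list and direction. Others given with a value were named after their values were seen. Members and lists were chosen with earlier results of these data known. Alternatives covered DESeq2 1.42.0, scaling, filters, libraries, block, thresholds, depth and gene class. The edgeR steps were tested on simulated data. Intervals were not computed, and errors cover only the spread between libraries.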

Additional observations from a re-analysis of the deposited data

Results flagged for a closer look

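In groups of 4 libraries, a library was singled out when its gap to the nearest of the others as a fraction of the whole range of the group exceeded Dixon's critical value at the 95% level. Of 290 groups tested, 21 were singled out (7.24%), and chance alone singles out about 1 in 20. No explanation was tested for any of them, and 7 concerned WT libraries and 14 dog1-3 libraries.

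MFT was highest in WT mock replicate 2, at 125 CPM against 107 to 109 CPM in the others (0.874), where the number in parentheses is the gap as a fraction of the range. PIF1 was highest in WT mock replicate 2, at 181 CPM against 138 to 142 CPM in the others (0.910). ARAB-1 was lowest in WT mock replicate 3, at 15.8 CPM against 19.8 to 20.6 CPM in the others (0.843). PYL4 was highest in WT mock replicate 1, at 49.9 CPM against 39.0 to 40.7 CPM in the others (0.844). GID1C was highest in WT mock replicate 4, at 13.3 CPM against 9.22 to 9.69 CPM in the others (0.885). ETR2 was highest in WT mock replicate 4, at 25.9 CPM against 18.4 to 19.7 CPM in the others (0.831). AT4G25260 was lowest in WT mock replicate 2, at 62.3 CPM against 95.0 to 97.6 CPM in the others (0.926).

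DOG1 was highest in dog1-3 mock replicate 2, at 19.0 CPM against 14.2 to 14.9 CPM in the others (0.847), where the number in parentheses is the gap as a fraction of the range. SWEET6 was lowest in dog1-3 mock replicate 1, at 14.9 CPM against 18.3 to 18.9 CPM in the others (0.846). VAMP712 was lowest in dog1-3 mock replicate 3, at 9.73 CPM against 18.9 to 19.7 CPM in the others (0.919). AT3G57020 was lowest in dog1-3 mock replicate 1, at 179 CPM against 216 to 221 CPM in the others (0.883). GRP7 was lowest in dog1-3 mock replicate 4, at 2403 CPM against 2572 to 2587 CPM in the others (0.920). FIB2 was lowest in dog1-3 mock replicate 2, at 628 CPM against 782 to 799 CPM in the others (0.900). VCL28 was lowest in dog1-3 mock replicate 4, at 2926 CPM against 3017 to 3034 CPM in the others (0.843). EEL was highest in dog1-3 mock replicate 1, at 18.6 CPM against 13.7 to 14.2 CPM in the others (0.911). EXPA1 was highest in dog1-3 mock replicate 1, at 281 CPM against 235 to 242 CPM in the others (0.837). AT2G25890 was highest in dog1-3 mock replicate 2, at 1815 CPM against 1625 to 1644 CPM in the others (0.899). PME3 was lowest in dog1-3 mock replicate 2, at 24.6 CPM against 36.6 to 38.8 CPM in the others (0.846). AT3G14595 was highest in dog1-3 mock replicate 2, at 162 CPM against 122 to 127 CPM in the others (0.880). PSBR was highest in dog1-3 mock replicate 4, at 83.4 CPM against 56.1 to 60.4 CPM in the others (0.841). AT5G27390 was highest in dog1-3 mock replicate 1, at 5.86 CPM against 5.15 to 5.25 CPM in the others (0.865).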

How the results depend on the processing

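Of the 2334 DEGs, DESeq2 called 1977 among 2098 of its own (1168 up, 930 down), and 1727 remained among 1990 after every library was thinned at random to 1416354 counts, an alternative chosen after seeing the data, like that with nuclear protein-coding loci only (2213). No called gene changed sign under any alternative run. Library size alone gave 2787 DEGs, 824 up and 1963 down, with a median log2FC of -0.18. A minimum count of 30 gave 1593 (844 up, 749 down), the 8 mock libraries alone 2290, no low-count filter 2598, no fold limit 4492 (2347 up, 2145 down) and a test against the fold limit itself (glmTreat) 841 (540 up, 301 down). The cause was not tested, except that a minimum count of 30 left fewer genes to test. In NaCl the calls were 3635 without the fold limit and 644 with glmTreat, of which 2824 and 515 were shared with mock in the same direction. Leaving out single libraries gave 2130 to 2404 DEGs. With the replicate number as a block 2320 were called, 2275 of them the same genes. The labels do not say that the numbers pair libraries. In deviations from group means, same-numbered libraries correlated at -0.16, 0.024, -0.0059 and -0.18, against at most 0.26 between different numbers. With only 4 libraries a side, this cannot settle whether they are paired. Of 127 named genes called, 78 kept their call under every alternative, and 49 lost it with glmTreat. Depth limits low genes: 3 counts are 0.726 to 1.72 CPM in these libraries.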

Other observations

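Other gene groups were described after their values were seen, and no test or explanation is attached. The background for all counts in this section is 9.94% called up and 8.44% down over all genes tested in mock. Small nucleolar RNAs, which guide the modification of ribosomal RNA, had 39 of 75 tested loci called down in dog1-3 and 1 up, with a median log2FC of -0.69, and 35 were called down in NaCl. The decreases included AT5G07735 (43.5 to 15.2 CPM, log2FC -1.49, adjusted p = 1.50e-11) and AT2G05765 (18.4 to 5.50 CPM, log2FC -1.78, adjusted p = 2.98e-08). Such loci often lie inside other transcripts, and reads of overlapping loci cannot be told apart without strand. Reads were collected next to poly(A) tails, so counts of snoRNAs or organellar RNAs without a tail need not follow their levels. Chloroplast and mitochondrial loci had 17 of 52 and 4 of 16 called up and 0 called down, but in NaCl 1 of each was called up, and the organelle share of counts was 0.862% ± 0.269 for WT libraries and 0.995% ± 0.322 for those of dog1-3 (SD, n = 4 each), with p = 0.543 by a two-sided exact permutation test.

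Glutathione S-transferases, which detoxify reactive compounds, had 9 of 28 called up and 2 down, with GSTF3 among those up (275 to 686 CPM, log2FC 1.32, adjusted p = 2.74e-15), while GSTU27 fell by 1.94 on the log2 scale. Glyoxalases, which remove methylglyoxal, had 6 of 15 called up and 0 down, and GLYI8 rose by 0.94. In the opposite direction, 9 of 27 sugar transporters and 6 of 15 nitrate and peptide transporters were called down and 1 up in each. STP1, a hexose transporter, fell by 0.97 and OPT6 by 1.27 on the log2 scale. Of 22 GDSL lipases 9 were called down and 3 up, although AT1G71250 rose by 1.56. Long noncoding RNAs had 43 of 127 called up and 18 down in mock (median log2FC 0.21) but 20 up and 21 down in NaCl (0.087), and decreases such as those of AT1G16635 (-2.78) and AT3G05655 (-1.79) had the same sign in NaCl (-2.06 and -1.78).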
